A study of Mus musculus with 7 samples.

Results

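Cycling marrow-derived Langerhans-like cells (cycling mLCs) are the donor cells that the deposited annotation places in its cycling mLC cluster. They were taken by that label alone and numbered 375 of 11899 donor cells. The study followed how marrow-derived cells refill the epidermis after bone marrow transplantation (BMT), by droplet sequencing of single cells with unique molecular identifiers (UMIs). All donor cells were CD11b+MHCII+ cells sorted from mouse epidermis 3 weeks after transfer of female CD45.1 C57BL/6 marrow into irradiated male CD45.2 C57BL/6 hosts, whose age the labels do not give. The labels name 3 of the libraries BMT and give added T cells for the remaining 1, here called BMT + T cells. The design text of the series has all hosts receiving T cells (CD4 and CD8 Matahari), so the labels differ from it, and any comparison between them is a comparison of labels. Library names have 2 forms, 1 shared by BMT 1 and BMT 2 and 1 by BMT 3 and BMT + T cells, and BMT 3, which has the label of the first pair and the name form of the second, is the only donor library that separates label from name form. By the study's own account the donor cells came from pooled mice in more than 1 sorting experiment. The labels do not tie libraries to experiments, so the units are libraries of pooled animals. The limma p values between clusters measure how cluster differences vary between libraries, with 1 spread per gene shared by all clusters in the fit.

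Langerhans cells are the macrophage-like antigen-presenting cells of the epidermis and hold their numbers by dividing in place. When the network is destroyed, monocytes enter the epidermis, take up EpCAM and then langerin (Cd207), and become Langerhans-like cells. A dividing cell copies its DNA in S phase with the replication fork and its nucleotide-supplying enzymes, and in G2 and M phase builds the spindle and the kinetochores that part the chromosomes. Genes of the first kind are switched on by E2F factors, and many of the second kind carry a CHR element and CCAAT boxes in their promoters.

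The cycling mLCs numbered 48 in BMT 1, 287 in BMT 2, 6 in BMT 3 and 34 in BMT + T cells. With fewer than 20 cells, BMT 3 was left out of the cycling mLC side of every test and is printed as a description. The share among donor cells was 1.87% in BMT 1 (95% exact Clopper-Pearson interval 1.38 to 2.47%), 3.42% in BMT 2 (3.05 to 3.84%), 2.65% in BMT 3 (0.980 to 5.69%) and 4.73% in BMT + T cells (3.30 to 6.55%). Among cycling and resident mLCs together they made up 31.4% in BMT 1, 19.6% in BMT 2, 10.5% in BMT 3 and 9.60% in BMT + T cells, so that BMT 1 had the lowest share of donor cells and the highest share of mLCs, and BMT + T cells the reverse. The intervals cover counting error only, and 1 library against 3 cannot reach a permutation p under 0.25. The libraries held 226 to 8382 donor cells and 2982296 to 64343817 UMIs. Of 8 cell barcodes found in more than 1 library, 0 belonged to a cycling mLC.

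The 3 markers of the cluster are given as a description. The study named cycling mLCs by Top2a and Mki67, so high levels of these 2 genes are no check of the label. Mki67 (chr7:135689784-135716450, GRCm38), the proliferation antigen that coats mitotic chromosomes, was at 9.76, 7.01, 4.96 and 10.0 UMIs per 10000 UMIs of a cell in the cycling mLCs of BMT 1, BMT 2, BMT 3 and BMT + T cells. In the resident mLCs of the same libraries it was at 1.27, 0.921, 0.430 and 0.859. Top2a (chr11:98992947-99024199), which untangles DNA strands before they part, was at 11.3, 11.2, 6.46 and 11.7 against 0.753, 0.798, 0.282 and 0.485. Epcam (chr17:87635979-87651127), the adhesion molecule gained on the way to a Langerhans cell, was at 14.9, 13.9, 17.7 and 15.7 in cycling mLCs. It lay under the resident level of 26.0, 18.7, 22.3 and 24.1 in every library, and far above the 0.218 to 0.659 of the classical monocytes (Mono). So the cells carried both the cycle genes and the epithelial adhesion gene, and for all 3 markers the 2 clusters did not overlap.

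**Figure D1:**
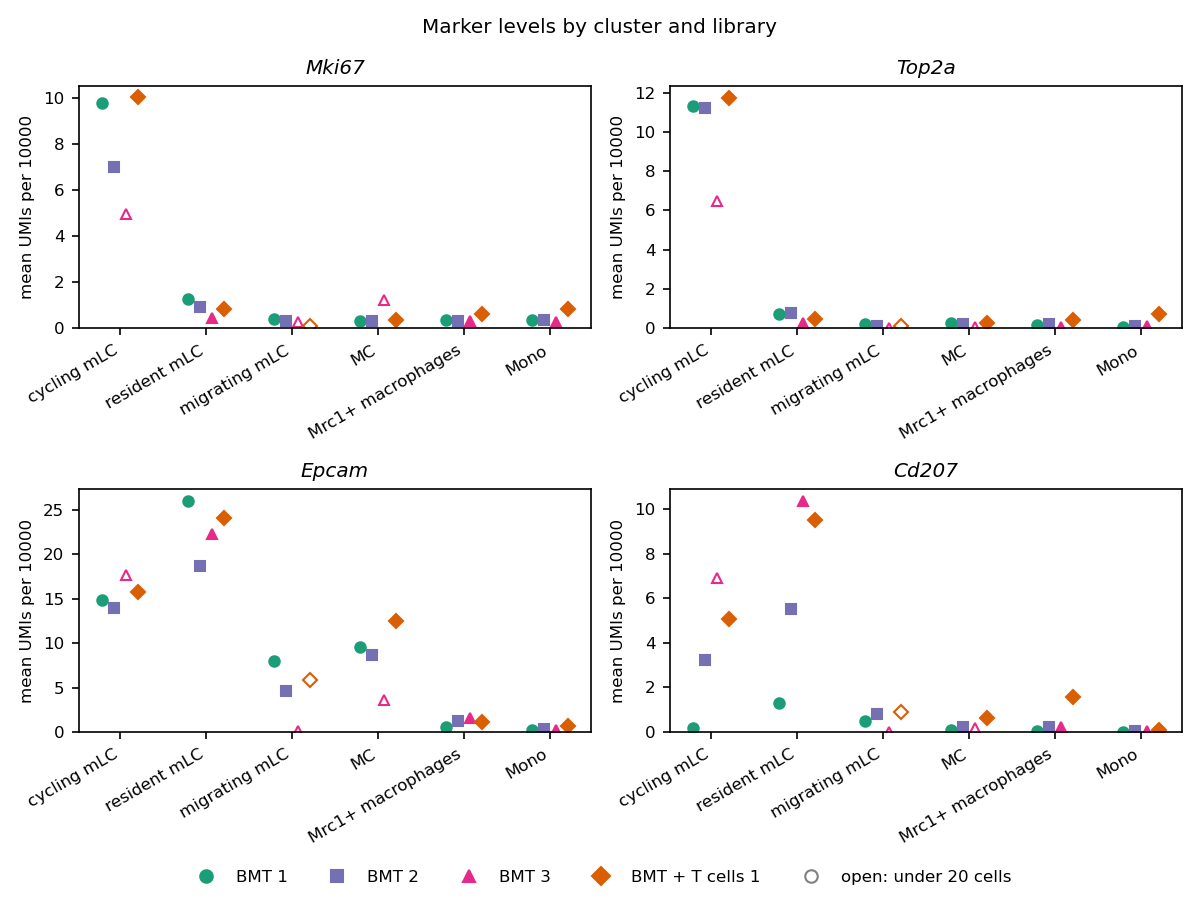
Mean UMIs per 10000 (y axis) of Mki67, Top2a, Epcam and Cd207 in 6 of the annotated clusters (x axis), 1 point per library, open where the library has fewer than 20 cells of the cluster. Mki67 and Top2a stood high in the cycling mLCs alone of these 6 clusters, Epcam lay between MC and resident mLCs in the 3 libraries with 20 cells of each, and Cd207 ran from 0.194 in BMT 1 to 6.91 in BMT 3.

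The promoters of the genes that rose most are shown first, since most genes of the cycle lists were higher in these cells. They are the 3 G2/M genes and the 3 S phase genes with the largest fold over resident mLCs that the RefSeq promoter table (GRCm38.p6) holds. Each line is the gene strand, 5′ to 3′, and stops at the base before the annotated gene start. Capitals mark a CHR element (TTTGAA or TTCGAA) or a CCAAT box (CCAAT), read on both strands. An E2F site (TTTGGCGC, TTTCCCGC, TTTCGCGC or TTTGCCGC) was searched as well and is in none of the 6.
Top2a (chr11:99024200-99024439, minus strand): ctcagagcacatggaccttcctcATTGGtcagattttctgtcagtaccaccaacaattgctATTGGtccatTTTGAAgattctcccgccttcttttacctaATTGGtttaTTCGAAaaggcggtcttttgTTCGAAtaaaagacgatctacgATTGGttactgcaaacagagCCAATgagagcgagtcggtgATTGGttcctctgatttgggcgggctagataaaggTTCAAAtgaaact
Nusap1 (chr2:119618048-119618297, plus strand): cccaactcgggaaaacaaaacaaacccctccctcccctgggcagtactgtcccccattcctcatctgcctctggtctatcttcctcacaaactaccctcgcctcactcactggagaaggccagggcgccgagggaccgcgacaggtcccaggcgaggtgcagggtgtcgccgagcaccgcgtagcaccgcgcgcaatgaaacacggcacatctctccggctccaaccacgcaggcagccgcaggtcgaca
Kif11 (chr19:37376132-37376381, plus strand): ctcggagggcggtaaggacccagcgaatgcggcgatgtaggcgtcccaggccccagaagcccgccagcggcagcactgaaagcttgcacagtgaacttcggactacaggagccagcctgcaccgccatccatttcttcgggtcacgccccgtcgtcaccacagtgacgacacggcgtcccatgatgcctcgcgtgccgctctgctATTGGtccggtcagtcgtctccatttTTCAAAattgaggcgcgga
Rrm2 (chr12:24708004-24708253, plus strand): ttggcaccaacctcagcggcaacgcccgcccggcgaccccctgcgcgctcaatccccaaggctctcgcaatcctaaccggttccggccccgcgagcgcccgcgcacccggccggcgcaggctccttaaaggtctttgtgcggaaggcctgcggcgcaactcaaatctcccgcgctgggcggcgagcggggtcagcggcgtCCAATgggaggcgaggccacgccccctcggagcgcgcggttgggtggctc
Clspn (chr4:126556730-126556956, plus strand): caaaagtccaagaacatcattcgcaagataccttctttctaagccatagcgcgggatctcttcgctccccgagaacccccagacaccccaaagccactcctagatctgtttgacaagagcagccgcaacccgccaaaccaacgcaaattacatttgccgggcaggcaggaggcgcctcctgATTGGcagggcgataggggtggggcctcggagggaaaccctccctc
Rad51ap1 (chr6:126939622-126939837, minus strand): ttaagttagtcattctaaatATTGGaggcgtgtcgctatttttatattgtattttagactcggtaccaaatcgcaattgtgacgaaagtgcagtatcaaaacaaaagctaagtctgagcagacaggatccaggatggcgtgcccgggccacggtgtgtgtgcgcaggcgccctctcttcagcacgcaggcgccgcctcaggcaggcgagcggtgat

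Top2a holds 4 CHR elements and 6 CCAAT boxes, the nearest CHR beginning 13 bases before the gene start. Kif11, the motor that pushes the spindle poles apart, holds 1 CHR at 19 bases and 1 CCAAT box at 45 bases. Rrm2, Clspn and Rad51ap1 hold 1 CCAAT box each and no CHR, and Nusap1 holds none of the motifs in this window. Over windows of 300 bases around the start, 74.4% of the 43 promoters of called G2/M genes held a CHR, against 18.2% of the 22 promoters of called S phase genes, 14.1% of the 7519 promoters of tested genes and 19.2% of all 32851 promoters in the table. CHR and CCAAT box stood together in 60.5% of the G2/M promoters, 13.6% of the S phase promoters, 5.79% of those of tested genes and 7.52% of all promoters. The E2F letters were in 6.98%, 27.3%, 4.36% and 2.26% in the same order. Among the 257 promoters of called genes outside the cycle lists, 30.4% held a CHR and 11.7% the E2F letters, against the 14.1% and 4.36% of tested genes. A match of letters is a description of the window, and the motifs may overlap one another.

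Of 7267 genes tested with limma between cycling and resident mLCs, 358 (4.93%) were called higher in cycling mLCs and 78 (1.07%) lower, a call being a Benjamini-Hochberg adjusted p under 0.05 and a change of more than 1 on the log2 scale. The scale was log2 of the mean UMIs per 10000 plus 0.1, which understates the change of low genes. Of the 358 genes, 112 were in the 6 cycle lists, which had 138 members tested. Of the 78 lower genes, 0 were. The clusters were cut on the same values, so these calls describe the annotation and are no independent evidence. The direction was shared by all 3 libraries for 355 of the 358 and 77 of the 78 genes. Cycling mLCs carried more UMIs per cell, with medians of 21166.5, 12909, 31467.5 and 22490.5 against 10082, 7343, 18027 and 12852.5 in resident mLCs of BMT 1, BMT 2, BMT 3 and BMT + T cells. The ratio was 1.87 ± 0.200 (SD, n = 3 libraries), above 1 in 3 of 3, and genes per cell were 1.42 ± 0.0578 times as many. With 3 libraries the exact two-sided sign-flip permutation test gave p = 0.25, the smallest it can give, for both. With cells under 2000 UMIs left out and all others thinned to 2000 UMIs, the calls were 279 higher and 68 lower. This kept 46 of 48, 286 of 287 and 30 of 34 cycling mLCs of BMT 1, BMT 2 and BMT + T cells. Of resident mLCs it kept 86 of 105, 1127 of 1175 and 275 of 320 in the same libraries. The setting therefore changes the cells as well as their depth.

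S phase genes rose in cycling mLCs, 25 of 30 tested members being called higher and 0 lower, with a median log2 change of 1.53 against -0.02 over all tested genes. Rrm2, the regulated subunit of ribonucleotide reductase, was at 3.05, 3.25, 2.76 and 4.77 UMIs per 10000 in the cycling mLCs of BMT 1, BMT 2, BMT 3 and BMT + T cells, and at 0.126, 0.158, 0.140 and 0.0940 in resident mLCs. Every cycling value was above every resident value, and the log2 change of 3.93 ± 0.33 (SE, adjusted p = 6.1e-09, limma) was the second largest of all. Its partner Rrm1 rose by 2.38 ± 0.37 on the log2 scale and Pcna, the sliding clamp of the replication fork, by 1.57 ± 0.24. Pcna was not low in resident mLCs, where it reached 0.926 to 1.98, against 3.06 to 6.34 in cycling mLCs. Among the 29 tested genes of the replication fork and nucleotide supply, 22 were called higher and 0 lower, with a median of 1.41. Dut, which clears dUTP, Tyms, which makes thymidylate, and Mcm7, a subunit of the replicative helicase, were among the called ones, the last 2 with log2 changes of 2.62 and 1.70.

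G2/M genes rose more evenly, with 45 of 46 tested members called higher, 0 lower and a median of 2.17. The exception was Gas2l3, at a log2 change of 0.78. Hmgb2, a chromatin protein abundant in dividing cells, was at 15.9, 19.9, 28.4 and 18.5 UMIs per 10000 in the cycling mLCs of the 4 libraries and at 3.85, 4.07, 3.38 and 3.84 in resident mLCs. Birc5 (survivin), a subunit of the chromosomal passenger complex, was at 6.18, 5.66, 10.2 and 7.74 against 1.11, 0.609, 0.553 and 0.826. Both genes were higher in each cycling sample than in any resident one. Top2a had the largest change of all tested genes (log2 3.95 ± 0.37, adjusted p = 3.7e-08, limma), and Mki67 rose by 3.12 ± 0.31. Nusap1, which bundles spindle microtubules, rose by 3.80 ± 0.31 and Kif11 by 3.68 ± 0.23.

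The kinetochore and spindle list rose in full, with 32 of 32 tested members called higher and a median of 2.43. Its most abundant member was Tubb5, a beta-tubulin, at 35.7, 38.6, 55.7 and 33.4 UMIs per 10000 in the cycling mLCs of BMT 1, BMT 2, BMT 3 and BMT + T cells and 8.08, 9.24, 8.97 and 8.93 in resident mLCs. The change of 2.00 ± 0.13 on the log2 scale had the smallest standard error of the list, and the groups lay far apart. Stmn1, which destabilizes microtubules, rose by 3.03 ± 0.49, from 1.38 to 2.15 in resident mLCs to 11.1 to 23.3 in cycling mLCs. Ndc80, Spc25 and Knl1, parts of the outer kinetochore that grips microtubules, rose by 3.25, 3.33 and 3.31.

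Among cyclins and kinases 12 of 18 tested members were called higher and 0 lower. Cdk1, the mitotic kinase, was at 3.60, 2.62, 6.44 and 3.55 UMIs per 10000 in the cycling mLCs and at 0.392, 0.259, 0.160 and 0.247 in resident mLCs. Ccne1, the cyclin that opens S phase, was at 1.15, 1.00, 0.370 and 1.35 against 0.0386, 0.0860, 0.103 and 0.0689. It was named after its values were seen, as were the D cyclins that follow. Ccnd1, the cyclin that responds to growth factors, was at 1.504, 0.750, 0.575 and 0.659 against 1.52, 1.14, 1.38 and 1.17, with a log2 difference of -0.57 ± 0.39 (adjusted p = 0.39, limma), and Ccnd2 and Ccnd3 were not called either. Cdk4, their partner kinase, rose by 1.05 ± 0.21.

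Of the 16 tested brakes on the cycle, 4 were called higher and 1 lower, with a median of 0.25. Of all tested genes 4.93% were called higher and 1.07% lower. The higher ones were Cdkn2c and Cdkn2d, inhibitors of Cdk4 and Cdk6, the pocket protein Rbl1 and the p53 target Cdkn1a. Cdkn2d was at 1.47, 1.08, 3.36 and 1.72 UMIs per 10000 in cycling mLCs and at 0.170, 0.140, 0.0979 and 0.271 in resident mLCs, a log2 change of 2.50 ± 0.25 (adjusted p = 7.2e-08, limma). Cdkn1a rose by 1.22 ± 0.29. Mxd4, a repressor that competes with Myc for Max, fell by 1.09 ± 0.30 on the log2 scale, from 0.391 to 0.541 in resident mLCs to 0.109 to 0.233 in cycling mLCs. Of 14 tested cycle transcription factors, 6 were called higher and 0 lower, with a median of 0.61. These were E2f2, the late E2F repressor E2f8, the E2F partner Tfdp1, and Lin9, Lin54 and Rbbp4 of the complex that governs cycle promoters. E2f8 was at 1.23, 1.12, 0.848 and 1.15 against 0.251, 0.251, 0.0895 and 0.337.

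Outside the cycle lists, 246 genes were higher. Apart from Ccl17 the 9 with the largest changes were Esco2, Iqgap3, Neil3, Fbxo5, Ncapg, Pbk, Melk, Cit and Incenp, with log2 changes from 3.56 down to 2.93. Esco2 acetylates cohesin, Fbxo5 holds back the anaphase-promoting complex, Ncapg is a condensin subunit, Cit acts in cytokinesis and Incenp anchors the chromosomal passenger complex. Ccl17, the chemokine ligand of Ccr4, rose by 3.60 ± 1.01 on the log2 scale (adjusted p = 0.032, limma). It was at 11.7, 10.7 and 3.03 UMIs per 10000 in the cycling mLCs of BMT 1, BMT 2 and BMT + T cells, and at 0.542, 2.16 and 0.247 in resident mLCs, while BMT 3 had 0 in both. In MC, the EpCAM-bearing intermediate cells of the annotation, Ccl17 was at 75.1, 79.9 and 36.5, above the cycling mLCs in each of the 3 libraries but not called (adjusted p = 0.058, limma).

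**Figure D2:**
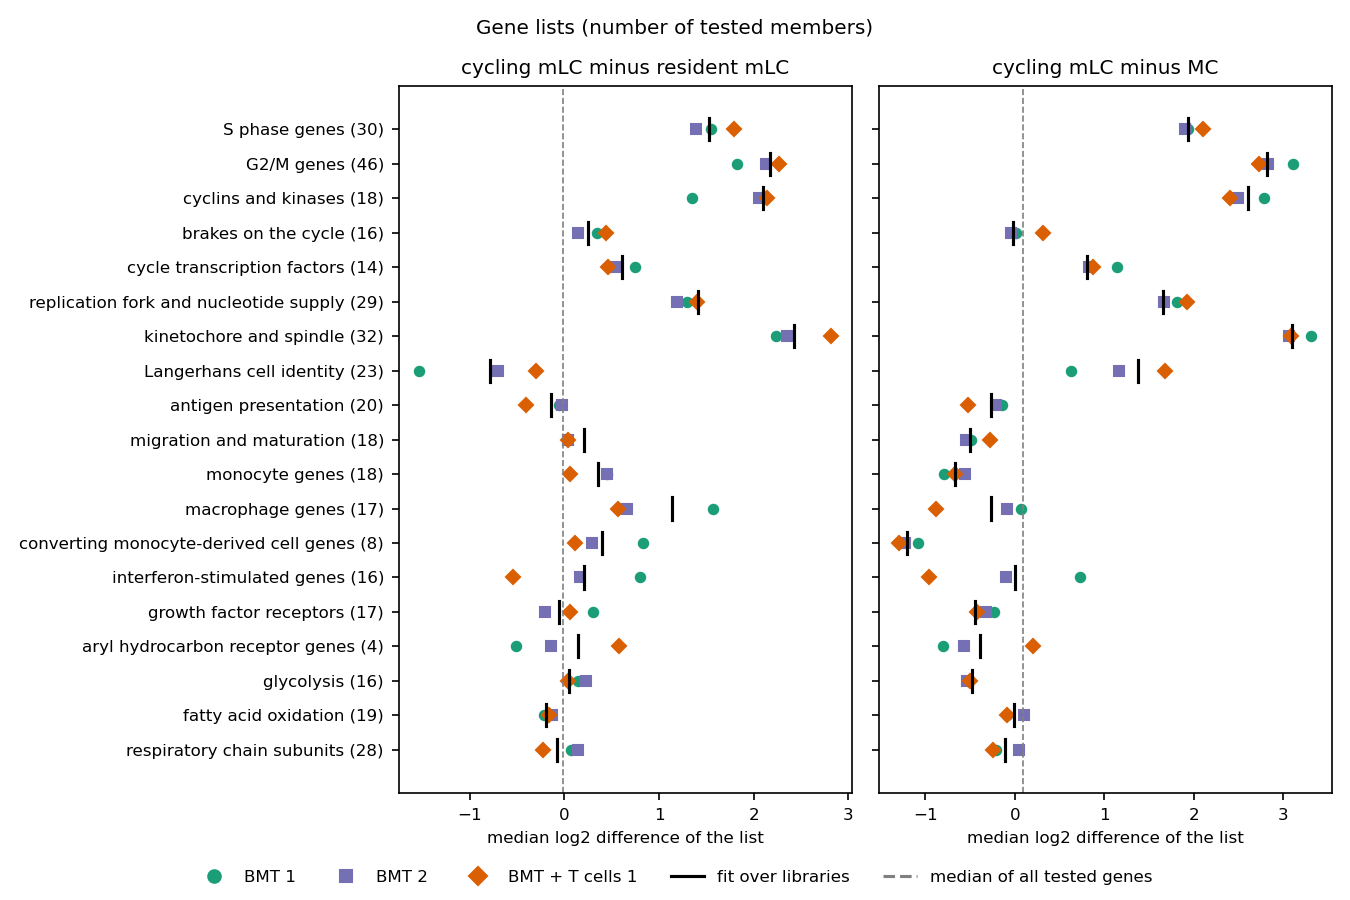
Median log2 difference (x axis) of the tested members of each gene list (y axis, number of members tested against resident mLCs in brackets), for cycling mLCs minus resident mLCs and minus MC, 1 point per library with 20 cells of each cluster, black bars for the limma fit and a dashed line for the median of all tested genes. The cycle lists lay to the right on both sides, and the Langerhans cell identity list lay left of the resident mLCs in 3 of 3 libraries and right of MC in 3 of 3.

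Langerhans cell identity genes were lower in cycling than in resident mLCs. Of 23 tested members, 8 were called lower and 0 higher, with a median log2 change of -0.78. Of all tested genes 1.07% were called lower and 4.93% higher, with a median of -0.02. The library medians of the list were -1.53 in BMT 1, -0.70 in BMT 2 and -0.30 in BMT + T cells. The count rested on BMT 1, without which 2 members were called. At 2000 UMIs per cell 3 were called, Hpgds, Cd24a and P2rx2, and without the library block 4. The 8 were Hpgds, Ptgs1 and Ltc4s, enzymes that make prostaglandins and leukotriene C4, the lysophosphatidic acid receptor Lpar3, Cd24a, the nonclassical class I molecule H2-M5, the ATP-gated channel P2rx2 and the calcium channel subunit Cacna1e. Lpar3 and Cd24a fall outside the naming rule and were named after their values were seen.

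Hpgds was at 3.79, 4.45, 2.61 and 5.56 UMIs per 10000 in the cycling mLCs of BMT 1, BMT 2, BMT 3 and BMT + T cells and at 11.4, 9.43, 10.4 and 10.8 in resident mLCs, with no overlap (log2 -1.18 ± 0.29, adjusted p = 0.0079, limma). Ltc4s was at 1.10, 2.31, 4.35 and 4.69 against 4.40, 4.34, 6.92 and 8.33, lower in each library though the groups overlapped. H2-M5 was at 0.405, 1.72, 1.68 and 3.33 against 4.88, 3.56, 3.53 and 3.95, lower in each library. At 2000 UMIs per cell its log2 difference was -0.71 and it was not called (adjusted p = 0.39, limma). That setting leaves out cells under 2000 UMIs and kept 86 of 105 resident mLCs of BMT 1 and 275 of 320 of BMT + T cells. In the kept resident mLCs of these libraries H2-M5 was lower than over all resident mLCs. Its resident level there rests in part on cells with few UMIs. Cd207 (chr6:83671207-83677857), langerin, was at 0.194, 3.24, 6.91 and 5.05 against 1.31, 5.50, 10.4 and 9.50. It was lower in each library, with a log2 difference of -1.54 ± 0.50 and an adjusted p of 0.051 (limma). Mfge8, the bridge to dying cells, was at 10.6, 35, 56.6 and 30.4 against 32.6, 56.8, 52.9 and 44.4, and Epcam differed by -0.59 ± 0.38 (adjusted p = 0.36, limma). BMT 1 had the lowest Cd207 and Mfge8 of the 4 libraries in both clusters.

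Against MC the same list was higher. Of its 23 tested members 11 were called higher and 1 lower, with a median of 1.38, where 522 of all genes (7.18%) were called higher, 186 (2.56%) were called lower and the median was 0.09. Ptgs1 was at 1.33, 3.75 and 5.54 UMIs per 10000 in the cycling mLCs of BMT 1, BMT 2 and BMT + T cells and at 0.0792, 0.0831 and 0.0922 in MC (log2 4.09 ± 0.32, adjusted p = 1.3e-09, limma). H2-M5 was higher by 3.59 ± 0.38 and Cd207 by 2.22 ± 0.52 on the log2 scale. Cd207 was at 0.0961, 0.240 and 0.643 in MC, so the cycling mLCs stood between the 2 clusters in each of the 3 libraries. The full order from MC over cycling to resident mLCs held in 3 of 3 libraries for 13 of the 23 members. The 10 others were Cdh1, Id2, Ahr, Runx3, Tgfbr2, Il1r2, Tgfb1, Tgfbr1, Csf1r and Sirpa, which were listed after their values were seen, and Il1r2, the decoy receptor of interleukin-1, was the member called under MC. How many of all tested genes keep the order from MC over cycling to resident mLCs was not counted. The 13 of 23 are therefore a description only. Outside the cycle lists, the called genes furthest under MC were Ccl9, F10, Ccl24, AA467197 and Cxcl9, with log2 changes from -2.98 to -2.40. F10, coagulation factor X, was at 0.631, 0.367 and 0.0957 against 2.90, 3.03 and 2.83.

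**Figure D3:**
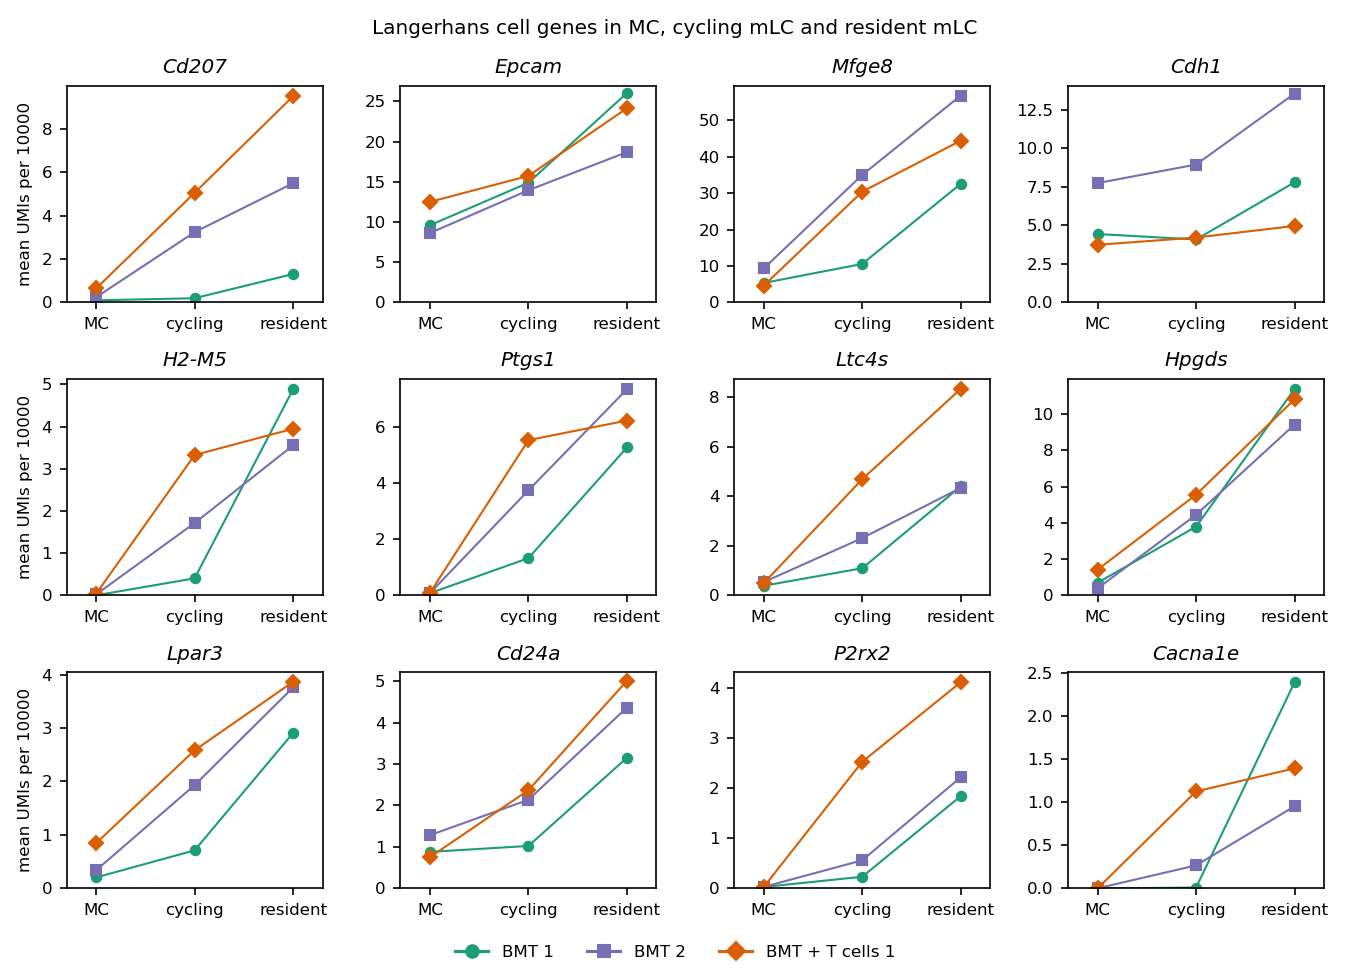
Mean UMIs per 10000 (y axis) of 12 Langerhans cell genes in MC, cycling mLCs and resident mLCs (x axis), lines joining the clusters of 1 library. The 12 were picked from the 23 tested members, 13 of which had this order in 3 of 3 libraries, and in BMT 2 and BMT + T cells each of the 12 genes rose from MC over cycling to resident mLCs, while in BMT 1 Cdh1, the adhesion molecule E-cadherin, was not above MC in cycling mLCs.

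Some macrophage genes and 2 monocyte genes were called higher than in resident mLCs. Of 17 tested macrophage genes 4 were called higher and 0 lower (median 1.14). Of 18 monocyte genes 2 were called higher and 0 lower (median 0.36), which cannot be told from the 4.93% higher of all genes. In BMT 1, BMT 2 and BMT + T cells the macrophage median was 1.58, 0.66 and 0.57. The monocyte median was 0.45, 0.45 and 0.06. Ms4a7 was at 2.79, 2.55 and 1.58 UMIs per 10000 in the cycling mLCs of BMT 1, BMT 2 and BMT + T cells and at 0.227, 0.606 and 0.533 in resident mLCs. The 6 cycling cells of BMT 3 stood apart from this, at 0.0466 against 0.168. C1qb, a chain of complement C1q, was at 18.7, 10.2, 2.63 and 7.52 against 4.39, 4.27, 2.67 and 5.04, again without a gap in BMT 3. C1qc and Trem2, a lipid receptor of macrophages, rose by 1.52 ± 0.43 and 1.67 ± 0.43. Lyz2, lysozyme, was at 6.91, 3.83, 8.35 and 5.18 against 1.08, 1.17, 1.76 and 1.93, above in all 4 libraries (log2 1.73 ± 0.27, adjusted p = 0.00012, limma), and Fcgr1 rose by 1.31 ± 0.28. Against MC, 0 of 17 macrophage and 0 of 18 monocyte genes were called higher and 1 and 3 lower. Of all tested genes 7.18% were called higher against MC and 2.56% lower. The counts of 0 and 1 cannot be told from these shares at such list sizes. The 3 lower monocyte genes lie above their share, which was not tested. The macrophage median against MC was 0.07 in BMT 1, -0.08 in BMT 2 and -0.88 in BMT + T cells, and the monocyte median was -0.79, -0.56 and -0.67. The part of RNA from other cells in these levels was not tested.

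Markers of other cell types that a sort can carry over were low. The T cell list, 11 of whose 12 genes the table holds, summed to 0.103, 0.551, 0.605 and 0.256 UMIs per 10000 in the cycling mLCs of the 4 libraries and to 0.247, 0.442, 0.560 and 0.410 in resident mLCs. The 9 listed keratinocyte genes summed to 0.395 to 2.05 against 0.807 to 1.96. The 8 listed neutrophil genes summed to 0 to 2.45 against 0.0834 to 1.29, the higher value of each range being BMT 2. The 3 listed mast cell genes summed to at most 0.418 and the 3 listed erythroid genes to at most 0.0511 in cycling mLCs. The ranges of the T cell, keratinocyte and neutrophil lists overlapped between the 2 clusters, and their part in the results was not tested.

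Each list of antigen presentation, growth factor response and metabolism had 0 or 1 member called, which at these list sizes cannot be told from the 4.93% higher and 1.07% lower of all genes. Of 20 antigen presentation genes 1 was called higher, Lgmn, an asparagine endopeptidase of the lysosome, and 0 lower, with a median of -0.14. H2-Ab1, a chain of MHC class II, was at 175, 168, 169 and 128 UMIs per 10000 in the cycling mLCs of the 4 libraries and at 191, 179, 181 and 187 in resident mLCs, and its log2 difference of -0.31 ± 0.12 was not called (adjusted p = 0.11, limma). Of 17 growth factor receptors, 16 interferon-stimulated genes, 16 glycolysis genes and 28 respiratory chain subunits, 0 were called, with medians of -0.06, 0.21, 0.05 and -0.08. Csf1r, the receptor of the survival factors Csf1 and Il34, was at 3.28, 4.16, 3.76 and 3.02 against 3.27, 5.19, 5.39 and 4.09 (log2 -0.25 ± 0.13, adjusted p = 0.26, limma). The interferon list lay at 0.80 in BMT 1, 0.16 in BMT 2 and -0.54 in BMT + T cells. Of 19 fatty acid oxidation genes 1 was called lower, Acads, the short-chain acyl-CoA dehydrogenase, which fell by 1.16 ± 0.26 on the log2 scale. The median of this list was -0.20, against -0.02 over all tested genes, and 2 of the 19 members lay above 0. By library it was -0.21 in BMT 1, -0.13 in BMT 2 and -0.16 in BMT + T cells, which was not tested. Ccr7, the receptor that guides migration to lymph nodes, named after its values were seen, was at 0.0316 in the cycling mLCs of BMT 2 and at 0 in those of the other libraries, and 1 of 18 migration and maturation genes, Ccl17, was called.

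Outside all lists, the genes that fell furthest under the resident level were Gabbr1, a subunit of the GABA-B receptor, Tcea3, a transcription elongation factor, Tcp11l2, Mmp9, Fam166b, Dmpk and Slfn5. Gabbr1 was at 0, 0.0560, 0 and 0.151 UMIs per 10000 in cycling mLCs and at 1.10, 0.446, 1.35 and 0.493 in resident mLCs, with no overlap (log2 -2.39 ± 0.29, adjusted p = 2.5e-06, limma). Its cycling levels rest on 23 UMIs in the 3 tested libraries, so the size of the change depends on the pseudocount of 0.1. Tcea3 was at 0.199, 0.722, 0.0985 and 0.0289 against 1.08, 1.54, 1.35 and 0.790. Mmp9, the gelatinase that cuts basement membrane, was at 0, 0.252, 0.394 and 0.230 against 0.247, 0.672, 2.20 and 0.472, and these low levels rest on 84 UMIs in the cycling mLCs of the 3 tested libraries.

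Within the cluster, the deposited phase calls put 112 cells in S and 263 in G2M, and 0 of 375 in G1. The upper exact limit of the G1 share was 7.40% in BMT 1, 1.28% in BMT 2, 45.9% in BMT 3 and 10.3% in BMT + T cells. The S share was 25% in BMT 1 (exact interval 13.6 to 39.6%), 31.7% in BMT 2 (26.4 to 37.4%) and 26.5% in BMT + T cells (12.9 to 44.4%), and all 6 cells of BMT 3 were in G2M. Resident mLCs of BMT 1, BMT 2, BMT 3 and BMT + T cells were called S in 19.0%, 25.9%, 19.6% and 15.3%. They were called G2M in 12.4%, 9.11%, 9.80% and 12.2%, so an S call was not particular to the cluster. The calls come from cycle genes that also shaped the cluster and are a description. In cells thinned to 2000 UMIs, the S phase list held a median of 8, 9, 6.5 and 11.5 UMIs and the G2/M list 23.5, 25, 32 and 29.5 in BMT 1, BMT 2, BMT 3 and BMT + T cells. The 2 counts ran against each other across cells, with a Spearman correlation of -0.62 over 46 cells of BMT 1, -0.37 over 286 of BMT 2 and -0.39 over 30 of BMT + T cells. The cells of a library share its depth, and the counts of a thinned cell share a fixed total.

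**Figure D4:**
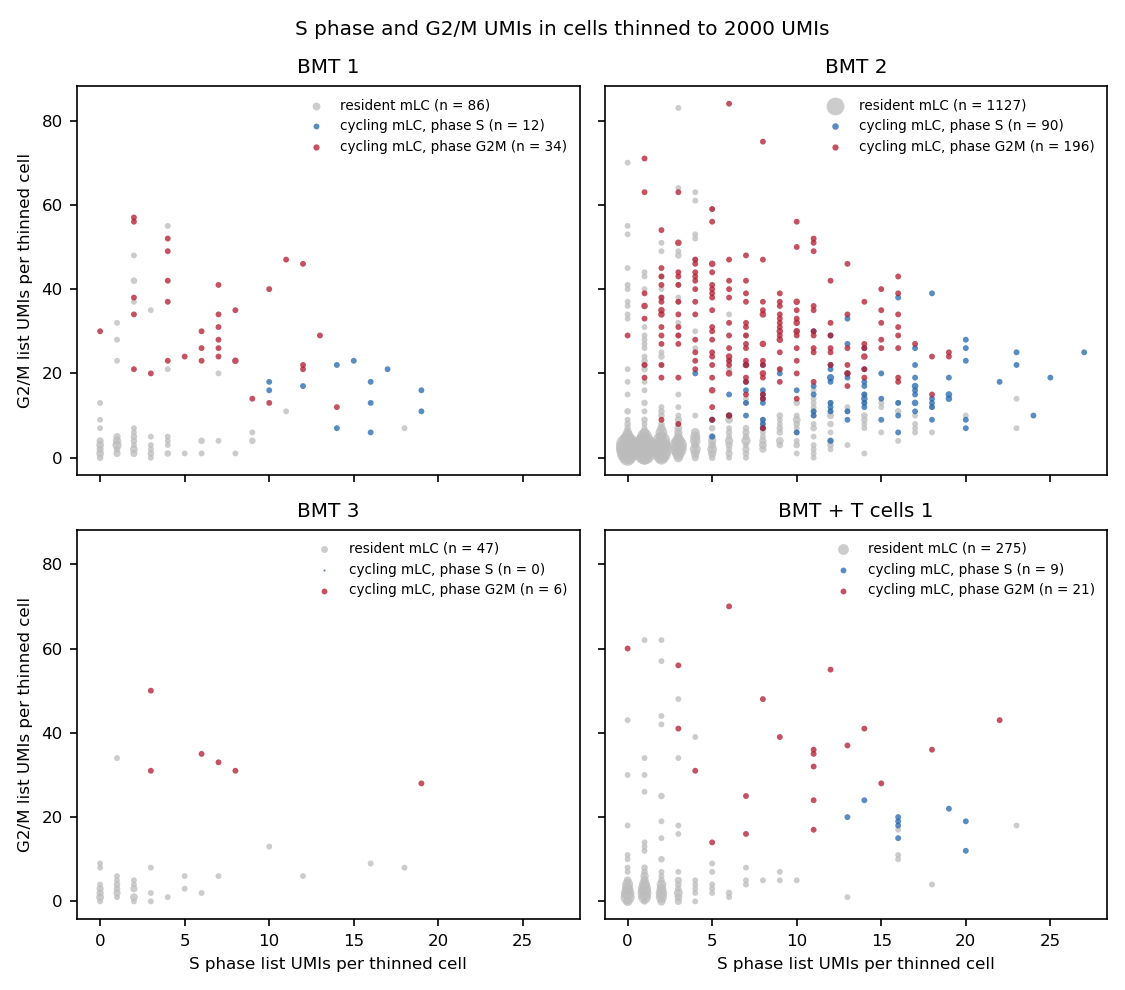
UMIs of the S phase list (x axis) and of the G2/M list (y axis) in single cells thinned to 2000 UMIs, 1 panel per library, point size growing with the number of cells at a position. Cycling mLCs called S lie to the lower right and those called G2M above them, resident mLCs crowd the lower left corner, and a column of resident mLCs with many G2/M and few S phase UMIs rises along the left edge.

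Between the phases the level of single genes turned over. Pcna was at 7.98, 10.2 and 6.72 UMIs per 10000 in the S cells of BMT 1, BMT 2 and BMT + T cells and at 2.94, 4.53 and 1.74 in their G2M cells. Ccnb2, a B-type cyclin of mitosis, was at 0.721, 0.859 and 0.880 in S cells and at 2.23, 2.89 and 3.13 in G2M cells. Mki67 was at 4.94, 3.67 and 5.32 in S cells and at 11.4, 8.57 and 11.7 in G2M cells. The S cells numbered 12 in BMT 1 and 9 in BMT + T cells. These differences follow from the calls, which use such genes. Of all 7267 tested genes, 20.6% were higher and 16.0% lower in G2M in 3 of 3 libraries. Of the 23 Langerhans cell genes 7 were higher and 5 lower, and of the 16 interferon-stimulated genes 10 were higher and 0 lower.

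Cells with as many cycle UMIs were also found outside the cluster. The level taken was the lower quartile of the cycling mLCs, 29 UMIs of both lists in a thinned cell, which 73 of 1535 resident mLCs reached. Their share was 9.30% in BMT 1, 4.44% in BMT 2, 2.13% in BMT 3 and 5.09% in BMT + T cells. Over all libraries the share was 0.610% in MC, 0.706% in Mrc1+ macrophages, 0.554% in Mono and 0.971% in interferon-stimulated gene (ISG) monocytes. It was 0.241% in migrating mLCs and 1.04% in S100a+ monocytes. Of 233 Hmox1+ monocytes 0 reached the level, which allows up to 1.29% if the cells of all libraries are pooled as independent. The resident mLCs thus held the highest share of such cells among the 8 other clusters, over all libraries together. By library they were highest in BMT 1 and BMT 2 only. Mono stood above them in BMT 3 (2.53%) and in BMT + T cells (5.26%), on 2 and 3 cells.

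**Figure D5:**
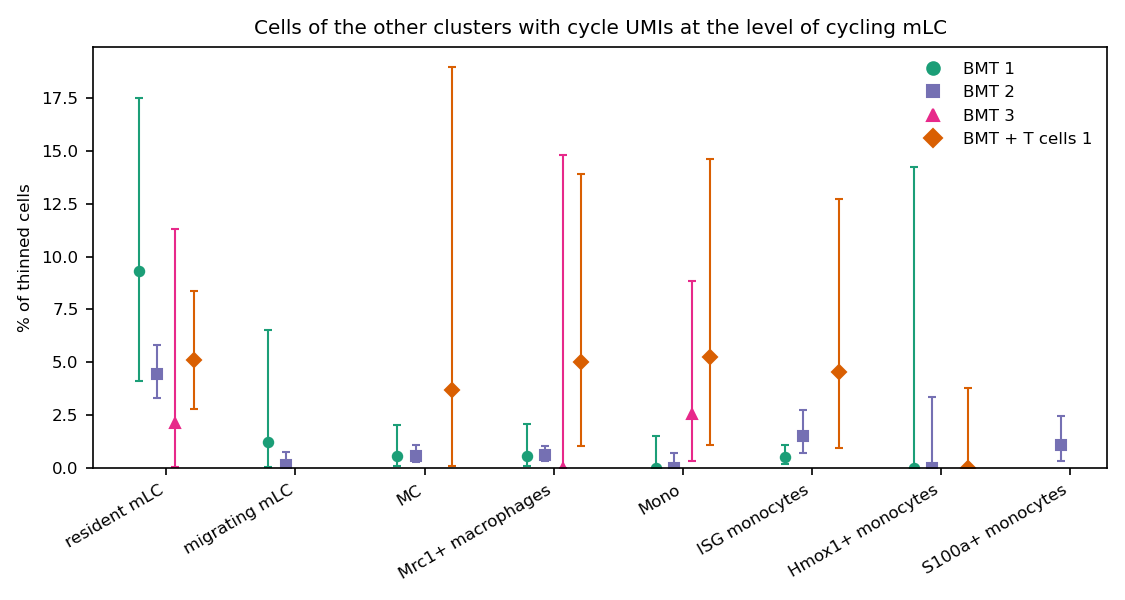
Percent of thinned cells (y axis) in each of the 8 other clusters (x axis) whose S phase and G2/M UMIs reach 29, the lower quartile of the cycling mLCs, 1 point per library with 20 or more thinned cells and bars for the 95% exact interval. Resident mLCs lie at 2.13 to 9.30%, and wide bars mark clusters with few cells.

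The resident mLCs at that level differed from the cycling mLCs in which cycle genes they carried. They were 8 cells of BMT 1, 50 of BMT 2, 1 of BMT 3 and 14 of BMT + T cells, chosen by their cycle UMIs and examined after those were seen, so what follows is a description without a test. Their median S phase UMIs were 2, 3, 1 and 2, where the cycling mLCs at the same level had 7, 10, 6.5 and 13. Their median G2/M UMIs were 39.5, 39, 34 and 40.5, where the cycling mLCs at the level had 28.5, 29, 32 and 32. Of the 73 cells, 63 were called G2M, 10 S and 0 G1. Cdc20, which activates the anaphase-promoting complex at the end of mitosis, was at 5.17, 3.75 and 5.87 UMIs per 10000 in these cells of BMT 1, BMT 2 and BMT + T cells and at 0.728, 0.918 and 1.13 in the cycling mLCs at the level. Cdc20 and Cenpa were named after their values were seen. Cenpa, the histone that marks the centromere, was at 6.64, 6.15 and 8.83 against 2.72, 2.38 and 3.43, and Ccnb2 at 7.17, 5.07 and 8.001 against 1.99, 2.63 and 2.32. Rrm2 ran the other way, at 0.127, 0.556 and 0.974 against 3.16, 3.33 and 5.64.

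Genes that did not enter that choice stood nearer to the resident level. Hpgds was at 7.42, 8.47 and 8.93 UMIs per 10000 in the resident mLCs at the cycling level, at 9.56, 9.32 and 9.83 in the resident mLCs below it and at 4.19, 4.98 and 5.996 in the cycling mLCs at the level of BMT 1, BMT 2 and BMT + T cells. Ptgs1 was at 3.62, 6.496 and 5.39, at 4.27, 7.33 and 5.43, and at 1.5, 4.46 and 5.22 in the same order. Ccl17 was at 1.22, 1.01 and 0.0393 in the resident mLCs at the cycling level and at 7.17, 6.33 and 3.59 in the cycling mLCs at the level. C1qb was at 2.18, 2.27 and 1.25 against 18.8, 7.502 and 7.89. H2-M5 was an exception, at 0, 1.85 and 0.330 in the resident mLCs at the level against 1.54, 3.61 and 1.85 in those below. These clusters were cut on such genes, and the cells were few.

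Leaving out the 6 cycle lists, the mean profile of cycling mLCs was closest to MC in BMT 1 and closest to resident mLCs in BMT 2 and BMT + T cells. Across 7129 genes the Pearson correlation with resident mLCs was 0.870, 0.948 and 0.882 and with MC 0.898, 0.911 and 0.781 in BMT 1, BMT 2 and BMT + T cells. With ISG monocytes it was 0.882, 0.888 and 0.756, so that resident mLCs came after both MC and ISG monocytes in BMT 1. These are correlations across genes, which are not independent, and clusters with fewer cells have noisier profiles. Cell by cell, 63.0% of the 46 thinned cycling mLCs of BMT 1, 74.5% of 286 of BMT 2 and 80.0% of 30 of BMT + T cells correlated best with the resident mLC profile. The share that correlated best with MC was 17.4%, 12.9% and 6.67%, the last a tie with Mrc1+ macrophages and Hmox1+ monocytes.

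On the deposited RNA velocity pseudotime, a fraction from 0 to 1, the medians of cycling mLCs were 0.475, 0.519, 0.644 and 0.639 in BMT 1, BMT 2, BMT 3 and BMT + T cells. Resident mLCs were at 0.633, 0.648, 0.777 and 0.776 and MC at 0.123, 0.123, 0.161 and 0.161, so cycling mLCs lay between them in each library and nearer to resident mLCs. The difference from resident mLCs was -0.142 ± 0.0151 (SD, n = 3 libraries), with an exact sign-flip permutation p of 0.25. On deposited latent time the medians of MC were 0.195, 0.223, 0.215 and 0.209 in the same order of libraries. Cycling mLCs lay above them in each library, at 0.415, 0.458, 0.661 and 0.660. They lay under resident mLCs in BMT 1 and BMT 2 only. The median difference from resident mLCs was -0.103 in BMT 1, -0.0584 in BMT 2, 0.0236 in BMT 3 and 0.0187 in BMT + T cells. The exact sign-flip permutation p was 0.5. The mitochondrial share was lower in cycling mLCs in 3 of 3 libraries, by -0.392 ± 0.223 percentage points (SD, n = 3, exact permutation p = 0.25), and 5 cycling mLCs of BMT 1 were over 20%.

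Between the labels, limma on the cycling mLCs of BMT + T cells against those of BMT 1 and BMT 2 called 564 of 7406 genes higher (7.62%) and 240 lower (3.24%), with 1 residual degree of freedom. With BMT 3 let in through a minimum of 5 cells, 0 of 7315 genes were called, and 509 had an unadjusted p under 0.05. For the difference of cycling minus resident mLCs between the labels the calls were 291 larger (3.88%) and 32 smaller (0.427%) of 7502, and 0 with BMT 3, where 612 had an unadjusted p under 0.05. On simulated data with 7267 genes the label test called 27 genes that had not been changed. No gene is named for either label, since the calls were lost with the third BMT library.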

How the data were processed

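Of the series' 7 samples, the 4 donor libraries were used, with 1 host library for 1 count; the keratinocyte samples were not analysed here. The authors aligned reads with kallisto and bustools to GRCm38, used Seurat, state that cells under 500 genes or over 20% mitochondrial UMIs and likely doublets were removed (5 deposited cycling mLCs are over 20%), and named clusters by markers (versions not given in the sources used here). No doublet caller was run here. The deposited expression values are the natural log of 1 plus UMIs per 10000. Whole UMIs were recovered from them for 100% of values within 0.001, and the listed genes held 91.3% of the UMIs of the median cell. The authors also deposited the mitochondrial percent, latent time and pseudotime as a fraction, the phase and cycle scores; per the paper's methods, the times come from RNA velocity. A score was not tested.

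Values were averaged per library and cluster with at least 20 cells. limma 3.58.1 (R 4.3.3, statmod 1.5.0; trend and robust) was fitted to log2 of the mean plus a pseudocount of 0.1, with the library as a block and all clusters in the fit, on genes with a mean of at least 0.1. p values were adjusted by Benjamini and Hochberg over all genes tested. The block pairs clusters of the same library, since both come from the same sort. In simulated data for cycling against resident mLCs (7267 genes), 88% and 96% of genes changed by -3 and 3 on the log2 scale and 30% and 56% of those changed by -1.5 and 1.5 were called, with 0 unchanged genes called. The simulation drew UMI sums, not cells, with the same fixed spread for every gene. It set the cycling profile to the resident one of its library before genes were changed. It therefore cannot give the rate of false calls in these data. Medians, intervals, exact tests and thinning to 2000 UMIs used Python 3.11.15 with NumPy 2.4.6, SciPy 1.17.1 and pandas 2.3.3, and figures matplotlib 3.10.9. The cells, lists and tests were chosen with earlier results of these data known. The genes named are at most 6 members of each list, called and abundant ones first, the 10 highest and 10 lowest called genes, also outside the cycle lists, and 5 each way against MC. Alternatives were other pseudocounts, filters, scalings, cell minimums, fold thresholds, clusters in the fit, a voom test on summed UMIs, and leaving out each library. RefSeq promoters and coordinates (GRCm38.p6) matched 489 of 489 listed or named genes for coordinates, and motif shares rest on those genes with a promoter entry.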

Additional observations from a re-analysis of the deposited data

Results flagged for a closer look

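Latent time differed in direction between the labels. The median difference of cycling minus resident mLCs averaged -0.0807 over BMT 1 and BMT 2 and was 0.0187 in BMT + T cells. This difference was not tested, and BMT 3, with 6 cycling cells, was at 0.0236, on the side of BMT + T cells.

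The cycling minus resident difference was larger in BMT + T cells for 291 genes and smaller for 32 in the limma interaction test, and for 0 genes once BMT 3 was included. BMT 3 is the only BMT library with the name form of BMT + T cells, and without it label and name form cannot be told apart.

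In the host library, whose cells the comparisons did not use, 7 of 603 thinned cells (1.16%, 95% exact interval 0.468 to 2.38%) reached the cycle UMIs of the lower quartile of the cycling mLCs. They lay in host clusters 2 (4 of 80 cells) and 5 (3 of 43 cells).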

How the results depend on the processing

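The calls against resident mLCs (358 higher, 78 lower) became 78 and 1 with a pseudocount of 1, 139 and 20 with a minimum mean of 0.5, 56 and 2 on means of the deposited log values, 219 and 45 with at least 5 cells, and 96 and 3 above a log2 change of 2. Without a fold threshold 256 were lower. Against MC (522 and 186) they became 108 and 36 with a pseudocount of 1, 66 and 30 on log means, 150 and 13 above a log2 change of 2, and 911 and 445 without a threshold. The minimum mean of 0.5 gave 155 higher and voom 307 lower. Cycle-list genes called higher (112) were 47, 34 and 40 with a pseudocount of 1, the minimum mean of 0.5 and log means. Langerhans cell genes called lower (8) were 1 with a pseudocount of 1, 5 with 0.01, 2 on log means, 5 with voom, 3 with at least 5 cells and 3 when thinned. Between the labels, 564 higher and 240 lower became 0 and 0 with at least 5 cells, 27 and 17 with a pseudocount of 1, and 2 and 15 on log means. For the difference between labels in cycling minus resident mLCs, 291 and 32 became 0 and 0, 24 and 2, and 0 and 6. The cause was not tested.

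Without the replicate block by library the calls were 333 and 64 against resident mLCs and 480 and 126 against MC, and 4 Langerhans cell genes were lower. Leaving out each library gave 256 to 345 higher and 22 to 88 lower against resident mLCs, the fewest lower without BMT 1 (22) and 46 without BMT 2. Against MC it gave 364 to 542 and 102 to 221, with 102 without BMT 2 and 121 without BMT + T cells. Langerhans cell genes called lower ran from 2 to 10, and cycle-list genes called higher from 98 to 110. Cdh1, at -0.22, ran from -0.58 without BMT 3 to 0.046 without BMT 1. Of 50 named and called genes, 32 kept their call without BMT 1, 16 on log means, 24 with a pseudocount of 1 and 33 with at least 5 cells, and 0 reversed in any alternative. With cycling and resident mLCs as the total, the mean share over the BMT libraries was 20.5% and in BMT + T cells 9.60%, in place of 2.65% and 4.73% of donor cells. At the median cycle level 3.26% of resident mLCs reached it, in place of 4.76%. The mean likeness to resident mLCs was 0.856 by Spearman and 0.900 by Pearson. Without BMT 1 or BMT 2 the label tests have no residual degrees of freedom and were not run. With 3 libraries, sign-flip tests cannot pass 0.05. Genes with a mean under 0.1 UMIs per 10000 over all library and cluster means of a fit were not tested.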
